A study of Mus musculus with 4 samples.

Results

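The distal ends of the 19 mouse autosomes are described here through the methylated regions that MeDIP-seq called in them. In MeDIP-seq, an antibody against 5-methylcytosine recovers methylated DNA fragments, which are then sequenced, and a peak is an interval where the sequenced tags lie denser than around it. For each autosome the end was set at the highest peak end over 4 deposited peak lists, and a peak was a member where its start lay within the last 3 Mb before that point. The members numbered 4125 in T2D islets, 4188 in control islets, 4356 in T2D sperm and 4332 in control sperm, 17001 of the 690963 peaks in all 4 lists. They made up 2.52%, 2.55%, 2.46% and 2.47% of the autosomal peaks of these lists, in the same order, over 57 Mb of sequence in all.

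The mice were ICR, an outbred strain. T2D founder males had a high-fat diet, with fat as 33% of energy, from 3 weeks of age and at 12 weeks a low dose of streptozotocin, a toxin of the insulin-producing beta cells, and were kept as diabetic where fasting glucose was 7 to 11 mM over the next 4 weeks. Control founders were fed a control diet, and both kinds were mated at 16 weeks with females on standard diet. T2D islets and control islets came from 3-week-old offspring of such fathers, 6 animals per group. T2D sperm and control sperm came from the founders themselves at 16 weeks of age, 6 animals per group, through a somatic cell lysis step. Islets and sperm thus differed in age and generation as well as in tissue, and these cannot be told apart. T2D founders had both the high-fat diet and streptozotocin, and no group had either alone, so diet and streptozotocin cannot be told apart. Each group had 1 library, and the labels do not say how its animals were combined, so no difference has a replicate check. The question of the study is whether a diabetic father shows altered DNA methylation in sperm, and his offspring in their islets.

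Mouse autosomes carry the centromere at one tip, and their coordinates start there, so the highest coordinates lead to the telomere at the other tip. Cytosine methylation in mammals sits mostly at CpG dinucleotides, and sperm and somatic cells are known to differ in which regions carry it. Subtelomeric stretches of mammalian chromosomes differ between chromosomes in gene content, base composition and repeats. Because MeDIP recovers DNA in proportion to methylated CpGs, peak density follows CpG density and mappability as well as methylation, and no input library was used for the sperm lists, so these cannot be told apart. Gaps in the assembly were not removed, so that a stretch without peaks and a stretch without known sequence cannot be told apart either.

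The sperm libraries held 31833988 unique tags in T2D and 31053754 in control per the file headers, and the depth of the islet libraries was not stated. Tags were therefore compared within a list or relative to the median of all autosomal pairs, except that regions present in all 4 lists were ranked by their lowest tags per kb. The enrichment and score of a peak were computed by the authors and rank it within its own list. The intervals given below are 95% intervals that cover counting error only, and neighbouring peaks and PCR copies are not independent. No test over samples was possible and no p-value is given.

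As a whole, the last 3 Mb held slightly more peaks per Mb than the rest of the same autosomes in all 4 lists. T2D islets had 72.4 peaks per Mb at the ends and 67.7 in the rest, a ratio of 1.07 (1.04 to 1.10). Control islets had 73.5 at the ends and 68.0 in the rest, a ratio of 1.08 (1.05 to 1.12). The T2D sperm list gave 76.4 peaks per Mb at the ends and 73.2 in the rest, a ratio of 1.05 (1.01 to 1.08). Control sperm gave 76.0 and 72.6, also a ratio of 1.05 (1.02 to 1.08). The surplus was small and not general. The end was denser than the rest on 10 of 19 autosomes in T2D islets, 12 in control islets, 10 in T2D sperm and 11 in control sperm. The surplus rested in part on chromosome 4 in islets and for the most part in sperm. Without chromosome 4 the ratios were 1.03 in T2D islets, 1.04 in control islets, 1.01 in T2D sperm and 1.01 in control sperm. It also turned into a deficit when the end was taken as the last 1 Mb, with ratios of 0.852 in T2D islets, 0.860 in control islets, 0.765 in T2D sperm and 0.736 in control sperm.

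Single peaks at the ends differed little from those elsewhere in width and tag density. Their median width was 896 bp against 901 bp in the rest in T2D islets, 864 against 868 bp in control islets, 985 against 982 bp in T2D sperm and 994 against 991 bp in control sperm. The median of tags per kb of peak was 44.8 at the ends against 44.3 in the rest in T2D islets, and 46.4 against 45.9 in control islets. In sperm it was 50.9 against 50.8 for T2D and 51.0 against 50.6 for control. The ratios of ends to rest lay between 0.995 and 1.003 for width and between 1.002 and 1.012 for tags per kb, each with an interval that included 1. Peaks among the best 10% of their list by score made up 11.3% of the end peaks in T2D islets (10.3% to 12.3%), against 9.97% of the rest. The same share was 10.7% in control islets, 10.3% in T2D sperm and 10.6% in control sperm, and the lower bounds of these shares, 9.75%, 9.46% and 9.67%, lay below the shares of the rest, 9.98%, 9.99% and 9.99%. Peaks covered 7.29% of the bases of the ends against 6.79% of the rest in T2D islets and 7.12% against 6.55% in control islets. In sperm they covered 8.50% of the ends against 8.04% of the rest for T2D and 8.47% against 8.04% for control.

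Within the last 3 Mb, peaks became sparser, narrower and lower in tags toward the tip. In T2D islets the outermost 0.5 Mb held 61.2 peaks per Mb, against 87.8 at 2.5 to 3.0 Mb from the end, a ratio of 0.697 (0.626 to 0.775). The control islets had 61.3 against 88.2, a ratio of 0.695 (0.624 to 0.773). In T2D sperm the outermost 0.5 Mb held 53.0 against 96.8 peaks per Mb, a ratio of 0.547 (0.490 to 0.610). Control sperm had 49.3 against 99.1, a ratio of 0.497 (0.444 to 0.556). The course was not even, since at 0.5 to 1.0 Mb the islet lists were lower than at the tip, with 54.6 peaks per Mb in T2D and 56.0 in control, while the sperm lists were higher there, with 59.3 in T2D and 58.0 in control. Fewer peaks in the outermost than in the innermost bin were seen on 12 of 19 autosomes in T2D islets, 13 in control islets, 15 in T2D sperm and 16 in control sperm. Because the end was set by an islet peak on 15 of 19 autosomes, the ratio was also taken from the last peak of each list itself. T2D islets then gave 0.705 (0.633 to 0.784), and control islets gave 0.709 (0.637 to 0.789). The T2D sperm value became 0.593 (0.532 to 0.660) and that of control sperm 0.537 (0.480 to 0.599), so that the intervals of T2D islets and T2D sperm overlapped.

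Peak shape followed the same gradient. The median width in the outermost 0.5 Mb was 854 bp against 963 bp at 2.5 to 3.0 Mb in T2D islets and 846 against 923 bp in control islets. In sperm it was 891 against 1104 bp for T2D and 907 against 1122 bp for control. Tags per kb of peak were 43.0 in the outermost bin against 47.7 in the inner one in T2D islets, and 45.1 against 49.7 in control islets. T2D sperm had 45.3 against 55.0 tags per kb, and control sperm 48.2 against 56.5. In all 4 lists the interval of each outer median lay below that of the inner one. Further inward, taken in stretches of 3 Mb, density was higher than in the terminal one. The 3 to 6 Mb stretch held 87.5 peaks per Mb in T2D islets, 89.1 in control islets, 92.1 in T2D sperm and 92.0 in control sperm. The 6 to 9 Mb stretch held 94.5 in T2D islets, 100.2 in control islets, 103.8 in T2D sperm and 104.1 in control sperm. Over the 10 stretches of 3 Mb counted back from the tip, the terminal one had the lowest density in each of the 4 lists.

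**Figure D1:**
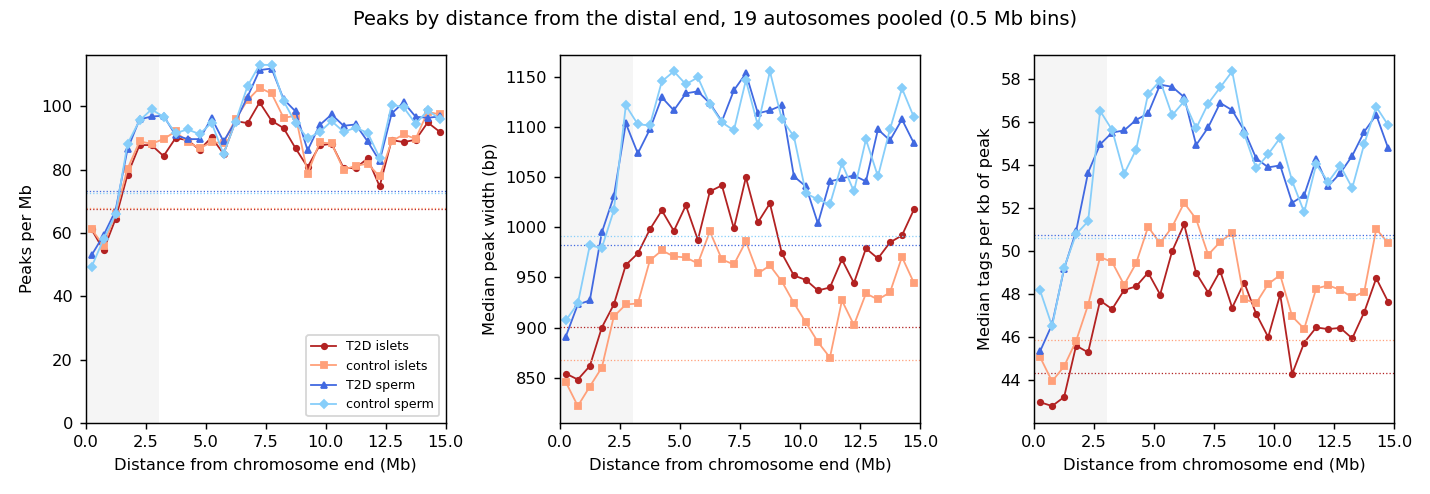
Peaks per Mb (left), median peak width in bp (middle) and median tags per kb of peak (right) against the distance from the distal end in Mb, in 0.5 Mb bins pooled over 19 autosomes, for the 4 lists. Grey marks the last 3 Mb and dotted lines the value of each list in the rest of the autosomes; density in the outermost bin was 61.2 peaks per Mb in T2D islets, 61.3 in control islets, 53.0 in T2D sperm and 49.3 in control sperm, below the dotted line of each list.

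The ends differed far more between chromosomes than between the 4 lists. The ratio of end to rest density ranged over the 19 autosomes from 0.377 to 1.71 in T2D islets, from 0.371 to 1.78 in control islets, from 0.311 to 1.72 in T2D sperm and from 0.311 to 1.78 in control sperm. On 9 autosomes the end was denser than the rest in all 4 lists, on 7 it was sparser in all 4, and on 3 the lists were mixed. For a single autosome, the difference between the highest and lowest ratio of the 4 lists was 0.0507 to 0.257.

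By the mean density over the 4 lists, the 3 densest ends were those of chromosomes 4, 11 and 2. The end of chromosome 4 (build mm9, chromosome 4 from 152629615 to 155629614) held 112 peaks per Mb in T2D islets, 118 in control islets, 119 in T2D sperm and 122.0 in control sperm. Among the 50 stretches of 3 Mb of this chromosome it ranked 3 in T2D islets, 1 in control islets, 2 in T2D sperm and 1 in control sperm. On chromosome 11 (118843342 to 121843341) the end held 324 peaks in T2D islets, 335 in control islets, 300 in T2D sperm and 315 in control sperm. On chromosome 2 (178717517 to 181717516) it held 303 in T2D islets, 280 in control islets, 352 in T2D sperm and 326 in control sperm. The end of chromosome 5 averaged 105.0 peaks per Mb over the 4 lists, just under the 105.1 of chromosome 2, and held 308 peaks in T2D islets, 327 in control islets, 302 in T2D sperm and 323 in control sperm. It was thus denser than that of chromosome 2 in both islet lists and less dense in both sperm lists, so the third place depends on the list. Both islet lists had more peaks than both sperm lists at the end of chromosome 11 and fewer at that of chromosome 2.

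The 3 sparsest ends were those of chromosomes 17, 18 and 3. At the end of chromosome 17 (92258582 to 95258581) there were 28.3 peaks per Mb in T2D islets, 28.7 in control islets, 24.7 in T2D sperm and 25.3 in control sperm, against 75.3 to 78.9 in the rest of that chromosome. Of its 30 stretches of 3 Mb it ranked 30 in both islet lists, 28 in T2D sperm and 29 in control sperm. The end of chromosome 18 (87762865 to 90762864) held 31.7 peaks per Mb in T2D islets, 30.3 in control islets and 24.3 in each sperm list, and ranked 28 of 29 in both islet lists and 29 of 29 in both sperm lists. Chromosome 3 (156538707 to 159538706) had 36.7 in T2D islets, 32.7 in control islets, 29.0 in T2D sperm and 32.3 in control sperm. The longest stretch without a peak in any list at these ends was 149 kb on chromosome 17 (93354087 to 93502931), 113 kb on chromosome 3 and 111 kb on chromosome 18, against 21.2 kb on chromosome 4.

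**Figure D2:**
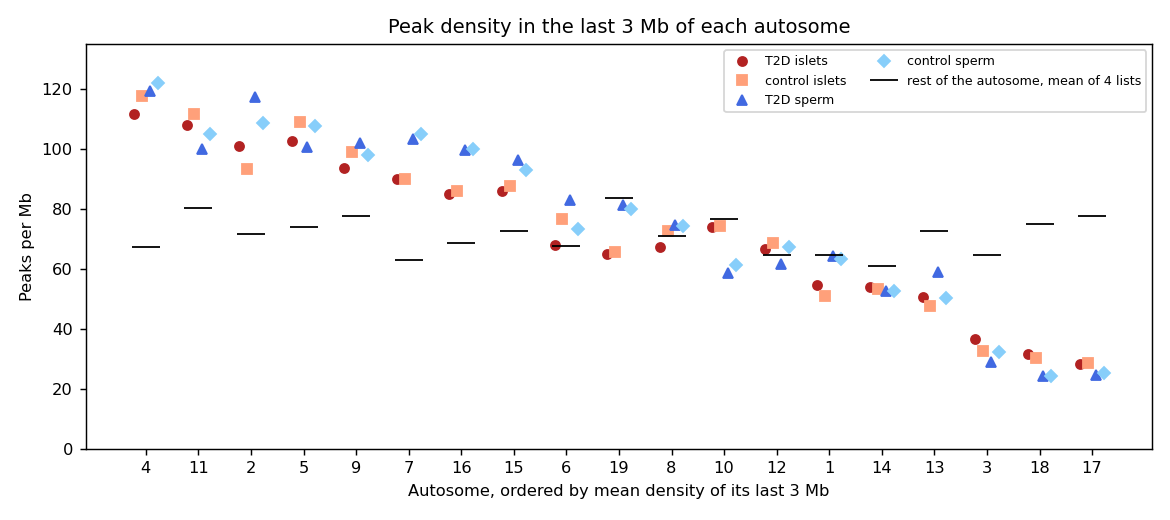
Peaks per Mb in the last 3 Mb of each autosome, ordered by the mean over the 4 lists; coloured points are the 4 lists and black dashes the mean density of the rest of the same autosome. By this mean the ends of chromosomes 4, 11 and 2 lie highest, with chromosome 5 (105.0) next to chromosome 2 (105.1), and those of 3, 18 and 17 lowest, and the 4 points of an autosome lie close together compared with the spread between autosomes.

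The outermost protein-coding genes of these chromosomes are named for orientation only. Their order was read from RefSeq on build GRCm38.p6, another build than that of the peaks, so no peak was assigned to a gene. The order gives no distance from the tip, so a named gene may lie outside the last 3 Mb. Near the tip of chromosome 4 lie Noc2l, an inhibitor of histone acetyltransferases, Isg15, an interferon-induced ubiquitin-like protein, and Agrn, the agrin that organises the neuromuscular junction. Chromosome 11 ends with genes that include Tbcd, a tubulin folding cofactor, and Fn3k, a kinase that removes sugar from glycated proteins. Chromosome 2 ends with Myt1, a neural zinc-finger factor, Oprl1, the nociceptin receptor, and Sox18, a regulator of vessel and lymphatic development. The outermost genes of chromosome 17, whose end was sparse, include Adcyap1, which encodes the neuropeptide PACAP, and the gonadotropin receptors Fshr and Lhcgr. Those of chromosome 18 include Cbln2, a synapse organiser, Neto1, a glutamate receptor auxiliary protein, and Socs6, a cytokine signalling suppressor. On chromosome 3 they include Wls, which escorts Wnt proteins for secretion, and Rpe65, the retinal isomerase of the visual cycle.

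**Figure D3:**
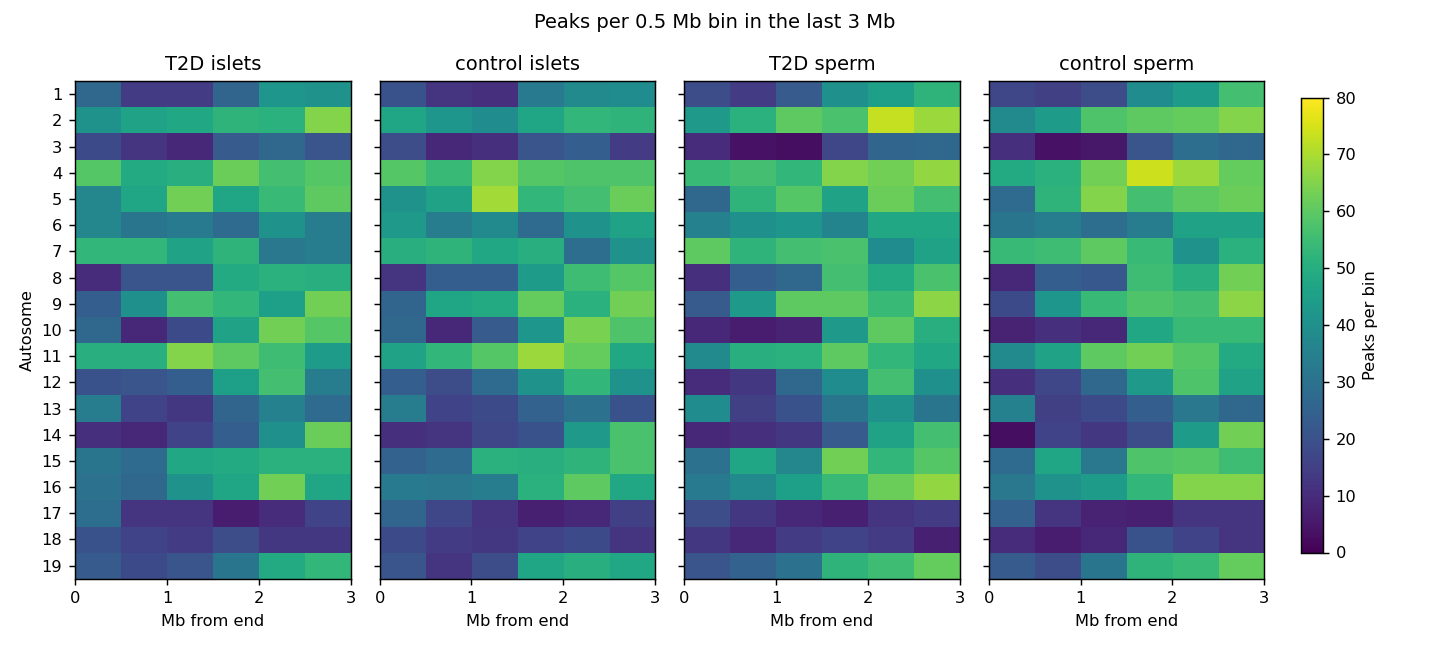
Number of peaks per 0.5 Mb bin (colour) by autosome (rows) and distance from the distal end in Mb (columns, tip at the left), for each of the 4 lists. On chromosome 10 the outermost bin held 27 peaks in T2D islets and 27 in control islets, against 9 in T2D sperm and 8 in control sperm, while that of chromosome 7 held 53 and 50 in T2D and control islets against 60 and 54 in T2D and control sperm.

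Islets and sperm were compared next, per end. With peak numbers taken relative to the length of each list, the last 3 Mb was higher in both islet lists than in both sperm lists on 8 of 19 autosomes (3, 5, 10, 11, 12, 14, 17 and 18), or 42.1%. This ordering held in 33.0% of the 794 stretches of 3 Mb over all autosomes. Both sperm lists were higher than both islet lists on 5 autosomes (1, 2, 7, 16 and 19), or 26.3%, against 34.1% of all stretches, and the tissues overlapped on 6.

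At the tip itself islets outnumbered sperm. In the outermost 0.5 Mb, T2D islets had 581 peaks and T2D sperm 503, a ratio of 1.16 (1.02 to 1.30). Control islets had 582 and control sperm 468, a ratio of 1.24 (1.10 to 1.41). In the rest of the autosomes the ratio of islet to sperm peaks was 0.926 for T2D and 0.936 for control. From 0.5 Mb inward it stayed between 0.891 and 1.00 in each 0.5 Mb bin of the last 3 Mb. Islet numbers exceeded sperm numbers in both conditions on 12 of 19 autosomes, or 63.2%, in this outermost bin, while 18.0% of the 4821 bins of all autosomes showed that order. Sperm was above on 2 autosomes, 7 and 13, or 10.5%, against 39.0% of all bins. The outermost bin was picked after the profile was seen. Its outer edge was set by an islet peak on 15 of 19 autosomes, unlike that of the other bins. The counts over autosomes used this edge. When the end was taken from each list itself, the ratio was 1.09 (0.964 to 1.22) for T2D and 1.19 (1.05 to 1.34) for control. Without chromosome 10 it was 1.12 (0.992 to 1.27) for T2D and 1.21 (1.06 to 1.37) for control.

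The last peak of an autosome came from an islet list on 15 of 19 autosomes, 11 of them in T2D islets and 4 in control islets, and from T2D sperm on 4. The last peak of a list lay at most 33.7 kb before the end in T2D islets, 33.6 kb in control islets, 113 kb in T2D sperm and 87.2 kb in control sperm.

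Sharing between conditions came next. Peaks without an overlapping partner in the other condition of the same tissue numbered 1221 at the ends in T2D islets, or 29.6%, against 32.5% of all autosomal peaks of that list. Control islets had 1282 without a partner, or 30.6%, against 32.7%. In T2D sperm there were 1314, or 30.2%, against 30.5%, and in control sperm 1291, or 29.8%, against 30.0%. Put as peaks with a partner, T2D islets had 70.4% at the ends and 67.4% in the rest, a difference of 3.00 percentage points (1.57 to 4.39), and control islets 69.4% and 67.3%, a difference of 2.10 points (0.664 to 3.49). The differences in sperm were 0.336 points for T2D (-1.06 to 1.70) and 0.191 points for control (-1.21 to 1.55). Over all scores together, sharing was thus a little higher at the ends in islets, beyond counting error, and not detectably so in sperm.

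Sharing depended much more on peak strength than on place. Among the weakest 20% of T2D islet peaks by score, 46.3% of those at the ends had a partner in control islets and 43.7% of those in the rest. Among the strongest 20%, 94.7% of the end peaks and 93.3% of the rest had one. Of the 5 score classes of T2D islets, the middle one alone had a difference whose interval left out 0, with 70.2% at the ends and 65.7% in the rest. In control islets the differences of the 5 classes ran from -0.116 to 3.18 points, each with an interval that included 0. The middle class had 66.2% at the ends and 66.3% in the rest there.

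**Figure D4:**
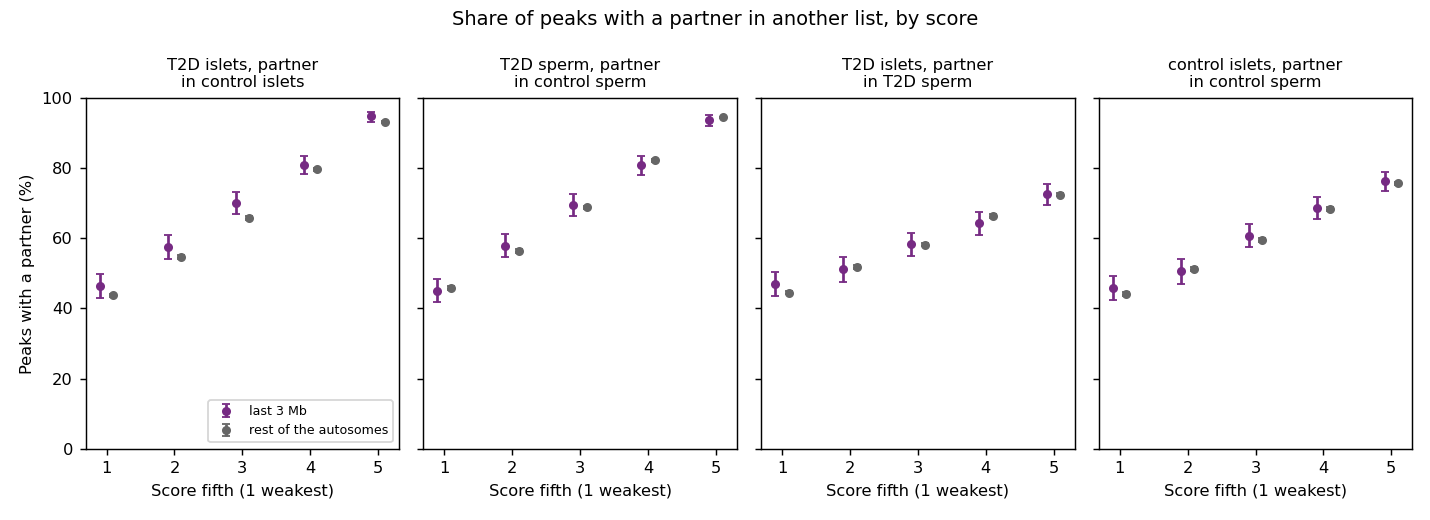
Percent of peaks that have a partner in another list, by score class from the weakest 20% (1) to the strongest 20% (5), at the chromosome ends (purple) and in the rest (grey), with 95% Wilson intervals. Sharing increases with score in every panel, for T2D islets with control islets from 46.3% to 94.7% at the ends, and the end and rest values of a class lie close together.

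Fewer peaks were shared between tissues than between conditions. Of T2D islet peaks at the ends, 1697 had no partner in T2D sperm, or 41.1%, against 41.3% over all autosomes. In control islets 1632 had none in control sperm, or 39.0%, against 40.2%. Seen from sperm, 1941 of the T2D end peaks had no T2D islet partner, or 44.6%, against 45.8%, and 1790 of the control end peaks had no control islet partner, or 41.3%, against 44.2%. Put as shares with a partner, ends minus rest came to 0.192 points (-1.34 to 1.70) for T2D islets, 1.26 points (-0.241 to 2.75) for control islets and 1.24 points (-0.263 to 2.73) for T2D sperm. For control sperm, 58.7% of the end peaks and 55.7% of the rest had a partner in control islets, a difference of 2.98 points (1.48 to 4.45). Within the 5 score classes of control sperm this difference was 2.01 to 3.32 points, each with an interval that included 0. Over the 19 autosomes, the share of islet peaks with a sperm partner of the same condition was lowest on chromosome 18, at 37.9% in T2D and 35.2% in control islets, and highest on chromosome 2, at 69.0% in T2D and 70.4% in control islets.

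The 4 lists together formed 7394 merged regions at the ends. Of these, 1700, or 23.0% (22.1% to 24.0%), held a peak in all 4 lists, against 21.6% of the rest. Both islet lists and neither sperm list covered 635 regions, or 8.59%, against 8.15% of the rest. Both sperm lists and neither islet list covered 646, or 8.74%, against 9.16%. Another 2535, or 34.3%, were in 1 list alone, against 35.5%.

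Of the regions in all 4 lists, the one with the highest minimum of tags per kb lay on chromosome 9 from 123370644 to 123371839, 0.704 Mb from the end. It held 393 tags in T2D islets and 372 in control islets, 167 in T2D sperm and 255 in control sperm, and its authors' enrichment was 16.3, 18.1, 15.0 and 15.4 in the same order. The other 4 lay on chromosomes 15, 6, 4 and 2. The one on chromosome 2 (181663139 to 181667427, 4289 bp) was the nearest to a tip, at 0.0544 Mb from the end, and held 257 tags in T2D islets, 220 in control islets, 340 in T2D sperm and 383 in control sperm.

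Some regions were called strongly in one tissue alone. The islet region with the highest lower enrichment, on chromosome 14 from 124129221 to 124129785, had an enrichment of 16.7 in T2D islets and 18.1 in control islets, and no peak within 1000 bp in either sperm list. The other 2 lay on chromosome 18 (88430799 to 88431321, 15.6 in T2D and 13.7 in control islets) and chromosome 14 (123720189 to 123721002, 15.9 and 13.6 in T2D and control islets). The corresponding sperm region, on chromosome 8 from 131481582 to 131482421, was 0.247 Mb from the end and had an enrichment of 17.8 in T2D sperm and 17.1 in control sperm, with 153 and 138 tags. The second, on chromosome 13 (117959953 to 117960942), had 286 tags in T2D sperm and 285 in control sperm, and the third lay on chromosome 18 (88479384 to 88480891) with 94 tags in T2D sperm and 91 in control sperm. At any enrichment, regions in both islet lists with no sperm peak within 1000 bp numbered 514. This was 6.95% of the merged regions at the ends, against 6.61% over all autosomes. Regions in both sperm lists with no islet peak within 1000 bp numbered 524, or 7.09%, against 7.54%.

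T2D and control were then compared at the ends. Peak numbers were close within each tissue. They were not scaled to depth, and the depth of the islet libraries was not stated, so depth and condition cannot be told apart in the islet ratios. Islets had 4125 peaks in T2D and 4188 in control, a ratio of 0.985 (0.943 to 1.03), against 0.996 in the rest. Sperm had 4356 in T2D and 4332 in control, a ratio of 1.01 (0.964 to 1.05), against 1.01 in the rest. Covered sequence was 4.15 Mb in T2D and 4.06 Mb in control islets, a ratio of 1.02 against 1.04 in the rest, and 4.84 Mb in T2D and 4.83 Mb in control sperm. Over single autosomes the ratio of peak numbers ran from 0.887 to 1.12 in islets and from 0.897 to 1.17 in sperm, and 0 of the 19 intervals left out 1 in either tissue. The T2D list had more peaks on 6 autosomes and fewer on 12 in islets, and more on 8 and fewer on 9 in sperm.

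**Figure D5:**
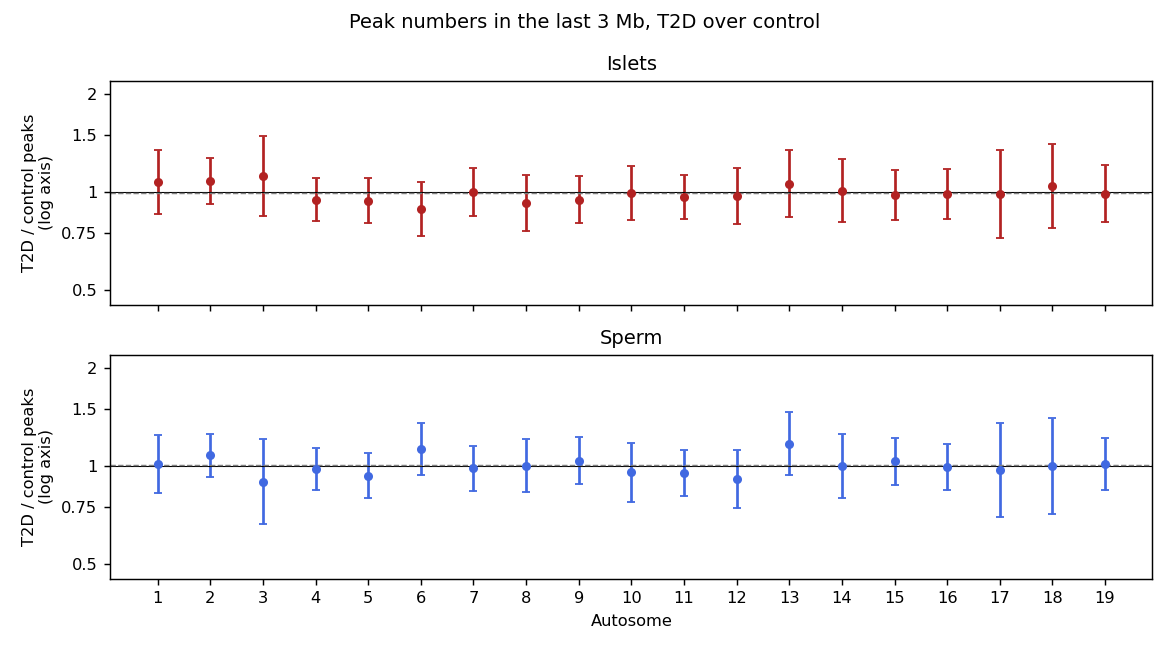
Ratio of T2D to control peak numbers in the last 3 Mb of each autosome (log axis), in islets (top) and sperm (bottom), with 95% exact binomial intervals. The solid line is a ratio of 1 and the dashed line the ratio in the rest of the autosomes (0.996 in islets, 1.01 in sperm); all 19 intervals of each tissue include 1.

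Tags in peaks that matched one to one were also close between conditions. In islets 2875 pairs had a median T2D to control ratio of 1.00 relative to the median of all autosomal pairs, and 0.992 (0.980 to 1.00) in tags per kb. In sperm 2998 pairs had a ratio of 1.00, and 0.990 (0.979 to 1.00) in tags per kb. At least 1.5-fold more tags in T2D were found in 249 islet pairs, or 8.66% (7.69% to 9.75%), against 10.2% over all autosomes, and at least 1.5-fold fewer in 247, or 8.59% (7.62% to 9.67%), against 8.78%. In sperm 268 pairs, or 8.94%, were higher in T2D by that much, against 8.34%, and 257, or 8.57%, were lower, against 8.05%. In islets the interval of the share with more tags lay below the background share, and the other 3 intervals included theirs. This depended on the unit. In tags per kb, 212 islet pairs were higher in T2D, or 7.37% (6.47% to 8.39%), against 7.10% over all autosomes, and 207 were lower, or 7.20%, against 7.36%. In sperm 208 were higher, or 6.94% (6.08% to 7.90%), against 6.28%, and 222 were lower, or 7.41% (6.52% to 8.40%), against 6.52%, and the lower bound of this last share was equal to its background at the rounding given.

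The largest differences, chosen after their values were seen, came with differences in peak width. In islets the pair with the highest ratio, on chromosome 4, had 63 tags over 1438 bp in T2D (154747045 to 154748482) against 20 tags over 612 bp in control. The lowest, on chromosome 13, had 36 tags over 1187 bp in T2D against 159 tags over 2446 bp in control. In sperm the highest, on chromosome 9, had 156 tags over 2790 bp in T2D against 42 over 965 bp in control, and the lowest, on chromosome 7, had 42 tags over 663 bp in T2D against 154 over 2341 bp in control.

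Peaks with no peak within 1000 bp in the other condition numbered 1121 in T2D islets, or 27.2% of the end peaks, against 29.5% over all autosomes, and 1179 in control islets, or 28.2%, also against 29.5%. In T2D sperm there were 1170, or 26.9%, against 27.2%, and in control sperm 1151, or 26.6%, against 26.6%. The strongest T2D islet ones by enrichment lay on chromosome 2 (181045836 to 181046847, 13.4), chromosome 1 (195390967 to 195391892, 13.2) and chromosome 7 (151045979 to 151046376, 13.0). The one on chromosome 2 had 41 tags and no sperm peak within 1000 bp, while the other two had a peak in both sperm lists there. The strongest of control islets lay on chromosomes 11 (121003023 to 121003532, 14.6), 8 (128891779 to 128892973, 13.9) and 3 (157457068 to 157457570, 13.7). In T2D sperm they lay on chromosomes 9 (122657914 to 122658657, 13.5), 18 (90049247 to 90049832, 12.6) and 14 (122952272 to 122953222, 12.3). For control sperm they were on chromosome 6 (148846569 to 148847083, 14.2, and 147281050 to 147281973, 12.9) and chromosome 7 (151041510 to 151042518, 12.2). The absence of a call in the other list does not show that methylation differed there.

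Regions that were called in T2D alone or control alone in both tissues numbered 634 at the ends. In 326 of them, or 51.4% (47.5% to 55.3%), the direction was the same in islets and sperm, 151 in T2D alone and 175 in control alone, against 50.3% of such regions in the rest.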

How the data were processed

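MeDIP-seq peak lists of 4 libraries, 1 per group, were used. Build mm9 and CASAVA 1.4 are named in the submitters' processing notes. MACS called the sperm peaks from 49 bp tags, with no control library and a p-value threshold of 1.00e-05, per the file headers. For the islet lists the caller was not given in the sources used here. Each deposited list gives a count of tags per peak, a score that is 10 times −log10 of the p-value of the peak, and a fold enrichment, all made by the authors. Tag counts were not scaled to depth.

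Distal peaks were compared with the rest of the same autosomes in peaks per Mb, median width, median tags per kb and share with a partner. A partner overlapped by at least 1 bp, and the counts of partners were the same in bedtools 2.31.1 and numpy 2.4.6. Shares carry Wilson intervals, count ratios exact binomial ones and medians order-statistic ones, at 95%. The steps were tested on simulated data. The members and lists were chosen with earlier results of these data known. Named regions were, per list, the 3 with the highest enrichment and no peak within 1000 bp in the other condition, the 5 in all 4 lists with the highest minimum of tags per kb, the 3 per tissue with the highest lower enrichment and no peak in the other tissue, and the 3 densest and sparsest ends. The imprinted cluster on distal chromosome 7 was not analysed here, because the gene table used is of another build. Alternatives were end lengths of 1 and 5 Mb, the best 50% of the peaks of every list by score, other partner rules, autosome weightings and scalings.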

Additional observations from a re-analysis of the deposited data

Results flagged for a closer look

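At the chromosome ends, the T2D minus control difference in peak number was -63 in islets (4125 in T2D, 4188 in control) and 24 in sperm (4356 in T2D, 4332 in control). The directions were opposite in the 2 tissues, and the difference between them was not tested. The intervals of both T2D to control ratios, 0.943 to 1.03 in islets and 0.964 to 1.05 in sperm, included 1. In the rest of the autosomes the difference had the same directions, with -571 in islets and 1276 in sperm, so they were not particular to the ends. The T2D minus control difference in median peak width was 32 bp in islets (896 bp in T2D, 864 bp in control) and -9 bp in sperm (985 bp in T2D, 994 bp in control), which was not tested either. Median widths in the rest of the autosomes were ordered alike, with 901 bp in T2D and 868 bp in control islets, and 982 bp in T2D and 991 bp in control sperm.

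The last 3 Mb of chromosome X, outside the 19 autosomes described above, held 45 peaks in T2D islets, 39 in control islets, 18 in T2D sperm and 21 in control sperm. Per Mb this was 15.0 at the end against 21.4 in the rest of X in T2D islets and 13.0 against 19.8 in control islets. In sperm it was 6.00 against 10.7 for T2D and 7.00 against 11.0 for control.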

How the results depend on the processing

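Of 144 recomputed values of 28 results under 13 settings, 83 stayed within the counting error, 57 moved beyond it and 4 reversed. With ends of 1 Mb, the density ratio of ends to rest reversed to 0.852 in T2D islets, 0.860 in control islets, 0.765 in T2D sperm and 0.736 in control sperm. In the same order, the width ratio was 0.945, 0.959, 0.930 and 0.922 and the ratio of tags per kb 0.967, 0.970, 0.904 and 0.930. Also with 1 Mb, the share with a partner in the other condition was 67.4% in T2D sperm, that with a partner in the other tissue 55.6% in T2D islets and 56.4% in control islets, and the T2D to control ratio of matched peaks 1.01 in islets (tags per kb) and 0.976 in sperm (tags). With ends of 5 Mb the density ratio was 1.16 in T2D islets, 1.18 in control islets, 1.13 in T2D sperm and 1.15 in control sperm, the width ratio 1.04, 1.04, 1.05 and 1.06, and the ratio of tags per kb 1.05, 1.04, 1.04 and 1.05. Without chromosome 4, the autosome with the densest end, the density ratio was 1.03, 1.04, 1.01 and 1.01. In T2D and control sperm the width ratio was then 0.989 and 0.985 and that of tags per kb 0.991 and 0.993. As the median over 19 autosomes, the density ratio was 1.01 in T2D sperm, the width ratio 0.976 in control islets, 0.965 in T2D sperm and 0.982 in control sperm, and the ratio of tags per kb 0.971 in T2D islets, 0.990 in control islets, 0.956 in T2D sperm and 0.962 in control sperm. With the best 50% of peaks by score, the density ratio was 1.12 in control islets, the width ratio 0.980 in T2D islets, and the islet to sperm ratio in the last 0.5 Mb 1.33 for T2D. The share with a partner in the other condition was then 63.8% in T2D islets and 62.5% in T2D sperm, and that with a partner in the other tissue 47.5% in T2D islets and 50.3% in control islets. Partners within 1000 bp gave 72.8% and 73.1% between conditions for T2D islets and T2D sperm, and 64.0% and 66.4% between tissues for T2D and control islets. A reciprocal overlap of 50% gave 66.2%, 65.1%, 52.3% and 53.3% for these 4 shares. Without scaling, the islet T2D to control ratio in tags per kb was 0.965. The alternatives for the last 0.5 Mb and for the gradient toward the tip were chosen after seeing the data. The causes of these changes were not tested. No paired analysis was possible because each group had 1 library. Islet depth is unknown, so tags of islets and sperm are not on one scale, which also touches the ranking of regions in all 4 lists by their lowest tags per kb.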
